A study of Saccharomyces cerevisiae with 9 samples.

Results

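The ends of yeast chromosomes carry gene families whose copies are similar or nearly identical in sequence and lie on many chromosome arms. Footprint counts were examined here for 52 such genes of the 6952 entries in the isoform table, chosen by symbol: 24 PAU genes, 11 COS genes, 6 AAD genes, 8 YRF1 genes and the VTH1 and VTH2 pair, with COS111 picked up by its symbol alone. The rule itself uses symbols and no measured value. Of these genes, 46 lay within 25 kb of a chromosome end and 6 lay farther in (PAU2, PAU5, PAU7, PAU17, PAU23 and COS111). COS111, a gene named for resistance to the antifungal ciclopirox, does not belong to the COS membrane protein family and was kept out of the COS sum. Distances are from RefSeq annotation of the R64 assembly, and on right arms they run from the end of the last annotated gene.

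Subtelomeric chromatin is partly silenced, and its gene content differs between yeast strains. PAU genes encode small, serine-poor cell wall mannoproteins known for expression under low oxygen, and COS genes encode membrane proteins of endosomes that help sort other membrane proteins to the vacuole. AAD genes encode putative aryl-alcohol dehydrogenases, YRF1 genes encode helicases of the telomeric Y' element, and VTH1 and VTH2 encode homologs of the sorting receptor Vps10, the product of PEP1.

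Ribosome footprints, the mRNA fragments that ribosomes shield from nuclease, were sequenced from W303 cells (MATa, with mutant ura3, leu2, his3, trp1, ade2 and can1 alleles in all groups) grown in YEPD at 30°C. The pab1Δpbp1Δ group (3 libraries) lacks the poly(A)-binding protein Pab1 and its partner Pbp1, with kanMX in place of PAB1 and URA3 in place of PBP1. Its 3 isolates derive from a single pbp1Δ isolate, and these cells grew more slowly. The pbp1Δ group (3 libraries of separate isolates) carries the pbp1::URA3 allele alone, and the WT group (3 libraries) has both genes. The study's methods describe the WT samples as technical replicates from 1 strain, while its results, on other data types, speak of biological replicates for each strain. The spread among WT samples may therefore be technical, and p-values against WT rest on it. Growth rate and descent cannot be told apart from the loss of Pab1, nor URA3 from the loss of Pbp1. A footprint count reflects both mRNA level and ribosome density, and neither was separated here.

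Libraries held 3149040 to 6903587 expected counts, and the pab1Δpbp1Δ replicate 3 library was the least deep. PAB1 had 0 to 3.00 normalized counts in pab1Δpbp1Δ libraries, 4564 to 5488 in pbp1Δ libraries and 5143 to 5644 in WT libraries. PBP1 had 0 in each pab1Δpbp1Δ library, 0 to 2.97 in pbp1Δ libraries and 778 to 813 in WT libraries, so the deleted genes matched all labels. Normalized counts are expected counts divided by DESeq2 size factors. In an expected count, a read that fits more than 1 transcript is shared out by estimate. Counts of near-identical copies are therefore uncertain for each copy, and each family was also summed.

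Of the 52 genes, 26 (50%) had a count of 0 in all 9 libraries, against 486 of all 6952 entries (6.99%) and 49 of 287 other genes within 25 kb of a chromosome end (17.1%). These 26 were 16 PAU genes, the 8 YRF1 genes, COS12 and AAD15. Counts above 0 in every library were found for 12 genes, of which 7 were COS genes and 2 were AAD genes, joined by VTH1, VTH2 and COS111. Per length, levels differed widely between families. The highest gene of each family by mean FPKM (a count corrected for both the length of the transcript and the depth of the library) over all libraries was COS6 at 28.2, VTH2 at 10.4, AAD6 at 1.15 and PAU17 at 0.613. The median of all entries with any count was 17.97 FPKM.

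The COS genes held the most footprints. Their summed normalized counts were 977, 942 and 1273 in pab1Δpbp1Δ libraries, against 858, 665 and 578 in pbp1Δ libraries and 687, 568 and 673 in WT libraries. All 3 pab1Δpbp1Δ libraries lay above every other library, while pbp1Δ and WT libraries overlapped. Per length, the summed COS level averaged 151 ± 25.4 FPKM in pab1Δpbp1Δ, 92.7 ± 18.9 FPKM in pbp1Δ and 84.8 ± 8.50 FPKM in WT (SD, n = 3 each).

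A call was made at a DESeq2 adjusted p below 0.01, which 21.4% of tested rows reached in pab1Δpbp1Δ against pbp1Δ, 1.25% in pbp1Δ against WT and 31.0% in pab1Δpbp1Δ against WT. Non-overlap was reached by 46.0%, 23.4% and 55.2% of tested rows in the same order of comparisons. The COS sum rose 1.64-fold in pab1Δpbp1Δ against WT (log2 fold change 0.72, SE 0.18, DESeq2 adjusted p = 0.000224). Against pbp1Δ the log2 fold change was 0.59 (SE 0.21), and its DESeq2 adjusted p of 0.0203 did not pass. Between pbp1Δ and WT the log2 fold change was 0.12 (SE 0.18, DESeq2 adjusted p = 0.876). The call against WT was lost without WT replicate 2 (log2 fold change 0.63, DESeq2 adjusted p = 0.011). The comparison with pbp1Δ passed without pbp1Δ replicate 1 (0.76, DESeq2 adjusted p = 0.00167).

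**Figure D1:**
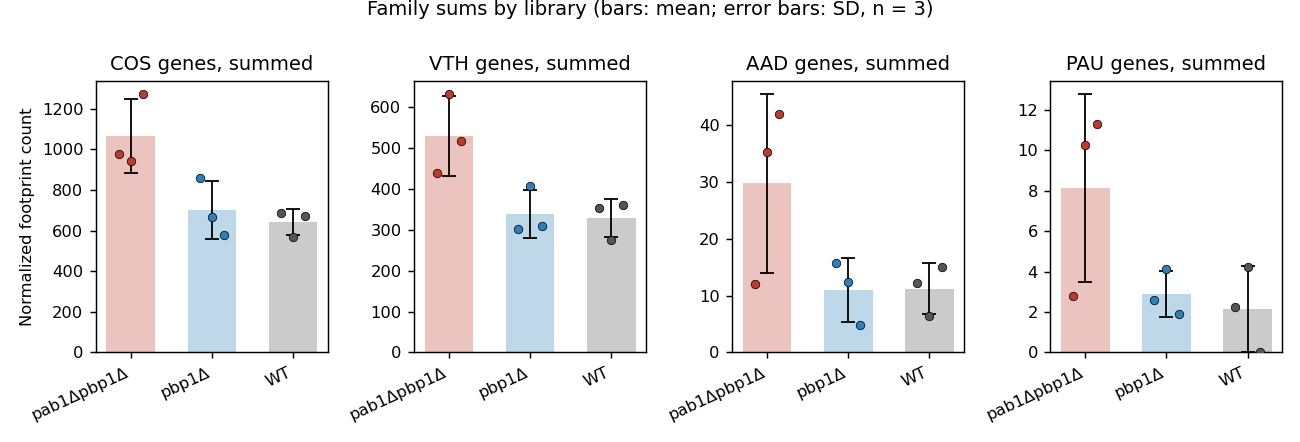
Normalized footprint counts summed over the COS, VTH, AAD and PAU genes, with 1 point per library, bars at the group mean and error bars of 1 SD (n = 3), each panel on its own linear axis from 0. The 3 pab1Δpbp1Δ libraries lie above all pbp1Δ and WT libraries for COS and VTH, and overlap with them for AAD and PAU.

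COS7 and COS6 were the COS genes with a call. COS7 (YDL248W, chromosome IV, 1802 to 2953 on R64) had 138, 255 and 372 normalized counts in pab1Δpbp1Δ libraries, against 72.1, 114 and 68.2 in pbp1Δ libraries and 39.0, 103 and 148 in WT libraries. Its pab1Δpbp1Δ libraries lay above all pbp1Δ libraries, but the lowest of them lay under the highest WT library. COS7 rose 2.95-fold against pbp1Δ (log2 fold change 1.56, SE 0.37, DESeq2 adjusted p = 0.000192) and 2.63-fold against WT (1.39, SE 0.43, DESeq2 adjusted p = 0.00453). Without pab1Δpbp1Δ replicate 3 it was called in neither comparison (1.20, DESeq2 adjusted p = 0.0116, against pbp1Δ, and 1.03, DESeq2 adjusted p = 0.101, against WT). The call against WT was also lost without pab1Δpbp1Δ replicate 2 (1.39), WT replicate 1 (1.01) or WT replicate 2 (1.43), and with edgeR (1.39, adjusted p = 0.0223). It was lost as well with the gene table (1.40, DESeq2 adjusted p = 0.0698), among entries averaging at least 10 counts (1.41, DESeq2 adjusted p = 0.062), and with limma on log2(FPKM + 1) and log2(FPKM + 0.1) (adjusted p = 0.0375 and 0.0363). Against pbp1Δ, limma also lost it (adjusted p = 0.0179 and 0.0154).

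COS6 (YGR295C, chromosome VII, 1081584 to 1082729) had 326, 231 and 442 normalized counts in pab1Δpbp1Δ libraries, against 241, 158 and 95.4 in pbp1Δ libraries and 137, 102 and 101 in WT libraries. The pab1Δpbp1Δ libraries lay above all WT libraries and overlapped with those of pbp1Δ by a single library on each side. COS6 rose 2.93-fold against WT (log2 fold change 1.55, SE 0.28, DESeq2 adjusted p = 2.44e-07), a call kept under all 16 alternatives run. Against pbp1Δ its log2 fold change of 0.99 (SE 0.35) had a DESeq2 adjusted p of 0.0176 and did not pass. It passed there under 5 of 16 alternatives. These were the fits without pab1Δpbp1Δ replicate 2 (1.21) and without pbp1Δ replicate 1 (1.37), with scaling by total counts (1.11), among entries averaging at least 10 counts (1.00) and with all 9 libraries (1.01).

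The other COS genes with counts had no call in any comparison. COS10 (chromosome XIV) had the smallest spread of the family, with 46.3, 42.7 and 49.8 normalized counts in pab1Δpbp1Δ libraries, against 64.04, 53.8 and 56.4 in pbp1Δ libraries and 63.5, 76.2 and 61.1 in WT libraries. All its pab1Δpbp1Δ libraries lay below all others, with log2 fold changes of -0.34 against pbp1Δ and -0.55 against WT (DESeq2 adjusted p = 0.48 and 0.185). COS2 (chromosome II, the last annotated gene of its arm) had the lowest log2 fold change against pbp1Δ, -1.12 (SE 0.89, DESeq2 adjusted p = 0.367). Over the 10 COS genes tested, the median log2 fold change was 0.17 in pab1Δpbp1Δ against pbp1Δ and 0.44 against WT, where all tested entries had medians of 0.025 and 0.047. As the reads were assigned, the higher COS sum lay mostly in COS6 and COS7, but values of single copies are uncertain. Whether COS6 or COS7 took reads of other copies was not tested. In each of these comparisons, 3 of the 10 tested COS genes had a negative log2 fold change.

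**Figure D2:**
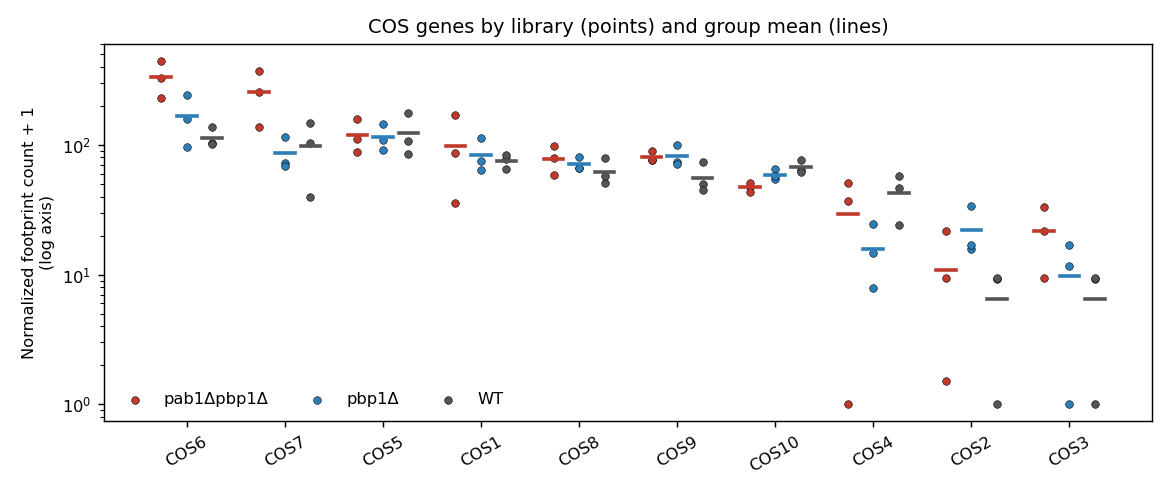
Normalized footprint counts plus 1 of the 10 COS genes with any count, on a log axis, ordered by mean FPKM from COS6 to COS3. Points are libraries, lines are group means (n = 3), and within each gene the groups run pab1Δpbp1Δ, pbp1Δ, WT. COS6 and COS7 stand higher in pab1Δpbp1Δ, COS10 stands slightly lower, and COS2, COS3 and COS4 scatter down to 0 within groups.

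COS2, COS3 and COS4 were high in some libraries and at or near 0 in others of the same group. COS2 and COS3 had equal expected counts in 5 of 9 libraries, in 4 of them above 0. COS2 had 20.8, 0.522 and 8.47 normalized counts in pab1Δpbp1Δ libraries, against 14.8, 15.8 and 32.7 in pbp1Δ libraries and 0, 8.22 and 8.34 in WT libraries. COS4 had 0, 36.1 and 49.6 in pab1Δpbp1Δ libraries, against 23.7, 13.7 and 6.87 in pbp1Δ libraries and 45.4, 23.0 and 56.9 in WT libraries. Where COS4 was at 0, in pab1Δpbp1Δ replicate 1, COS2 and COS3 were at 20.8 each, and where both of those were at 0, in WT replicate 1, COS4 was at 45.4. Their sum was 41.6, 69.1 and 66.6 in pab1Δpbp1Δ libraries, 49.0, 45.4 and 39.6 in pbp1Δ libraries and 45.4, 39.4 and 73.5 in WT libraries. This trio, and the next pair, were chosen after their values were seen, so no test was made.

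COS5, whose annotated length equals that of COS7, had 86.6, 157 and 110 normalized counts in pab1Δpbp1Δ libraries, against 143, 90.7 and 109 in pbp1Δ libraries and 175, 84.2 and 106 in WT libraries. The WT replicate 1 library had the highest COS5 count and the lowest COS7 count of the 9. COS5 and COS7 together had 224, 412 and 481 in pab1Δpbp1Δ libraries, against 215, 205 and 177 in pbp1Δ libraries and 214, 187 and 253 in WT libraries. The sum in pab1Δpbp1Δ replicate 1 was close to the highest pbp1Δ library and under the highest WT library. Whether reads were divided wrongly between these genes was not tested.

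VTH1 and VTH2 differed widely between replicates of a group. Both are annotated at 4650 bases, VTH1 (YIL173W) on chromosome IX at 11492 to 16141 and VTH2 (YJL222W) on chromosome X at 11475 to 16124. VTH1 had 237, 287 and 0.33 expected counts in pab1Δpbp1Δ libraries, against 0.63, 0.67 and 323 in pbp1Δ libraries and 158, 130 and 112 in WT libraries. VTH2 had 237, 573 and 320 in pab1Δpbp1Δ libraries, against 344, 491 and 0.57 in pbp1Δ libraries and 158, 130 and 222 in WT libraries. The genes had the same count in 3 libraries, nearly all counts fell to a single gene in 4 libraries, and that gene was VTH1 in pbp1Δ replicate 3 and VTH2 in the other 3.

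**Figure D3:**
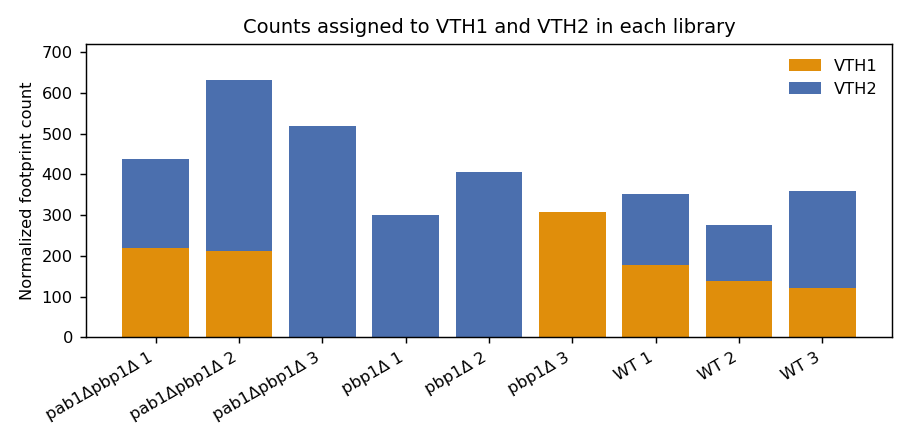
Normalized footprint counts of VTH1 and VTH2 stacked in each of the 9 libraries, on a linear axis from 0. The boundary between the 2 genes moves from none to all of a bar between replicates, while the height of the bars differs less, with the 3 pab1Δpbp1Δ bars the highest.

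Summed, VTH1 and VTH2 had 438, 632 and 517 normalized counts in pab1Δpbp1Δ libraries, against 301, 406 and 308 in pbp1Δ libraries and 352, 275 and 360 in WT libraries. The pab1Δpbp1Δ libraries lay above all others. The sum rose 1.60-fold against WT (log2 fold change 0.68, SE 0.20, DESeq2 adjusted p = 0.0033). Against pbp1Δ the log2 fold change was 0.63 (SE 0.22) with a DESeq2 adjusted p of 0.0154, which did not pass, and in pbp1Δ against WT it was 0.040 (SE 0.19, DESeq2 adjusted p = 0.97). The call against WT was lost without pab1Δpbp1Δ replicate 2 (0.53) or 3 (0.70), and without WT replicate 1 (0.73), 2 (0.56) or 3 (0.75), with DESeq2 adjusted p between 0.0104 and 0.0526. The comparison with pbp1Δ passed without pab1Δpbp1Δ replicate 1 (0.75, DESeq2 adjusted p = 0.00629).

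Tested alone, VTH2 was called against WT (log2 fold change 1.06, SE 0.31, DESeq2 adjusted p = 0.00297), with overlapping libraries. That call was lost without pab1Δpbp1Δ replicate 2 (0.99) or 3 (0.80), and without WT replicate 1 (1.02) or 2 (0.88). It was also lost with all 9 libraries in the fit (1.07, DESeq2 adjusted p = 0.544), with edgeR (1.07, adjusted p = 0.0141) and with limma on log2(FPKM + 1) and log2(FPKM + 0.1) (adjusted p = 0.0325 and 0.0313). VTH1 received no p-value from DESeq2 in either comparison that involves pbp1Δ. Without pbp1Δ replicate 3, VTH1 had a log2 fold change of 7.39 in pab1Δpbp1Δ against pbp1Δ and of -7.42 in pbp1Δ against WT (DESeq2 adjusted p = 2.42e-05 and 7.94e-09). The summed pair, above, showed no difference of that size. PEP1, which encodes the related receptor Vps10, averaged 25.9 ± 6.11 FPKM in pab1Δpbp1Δ, 25.8 ± 4.76 FPKM in pbp1Δ and 27.9 ± 2.29 FPKM in WT (SD, n = 3 each).

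For the COS and VTH genes, the spread between replicates was closer to that of other genes in the sum than in most single copies. The SD of log2(normalized count + 1) within a group, averaged over the 3 groups, was 2.93 for VTH1 and 1.86 for VTH2 but 0.24 for their sum. Only 3 of the 5300 entries averaging at least 10 normalized counts exceeded VTH1. Single COS genes ran from 0.13 for COS10 to 1.66 for COS3, and the COS sum had 0.22, where the median entry had 0.21. The AAD and PAU sums, of few counts, had 0.78 and 0.86, above 98.1% and 98.4% of these 5300 entries. The PAU sum itself averaged under 10 normalized counts (8.13 in pab1Δpbp1Δ, 2.88 in pbp1Δ and 2.15 in WT), so entries of like counts are not in that set.

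**Figure D4:**
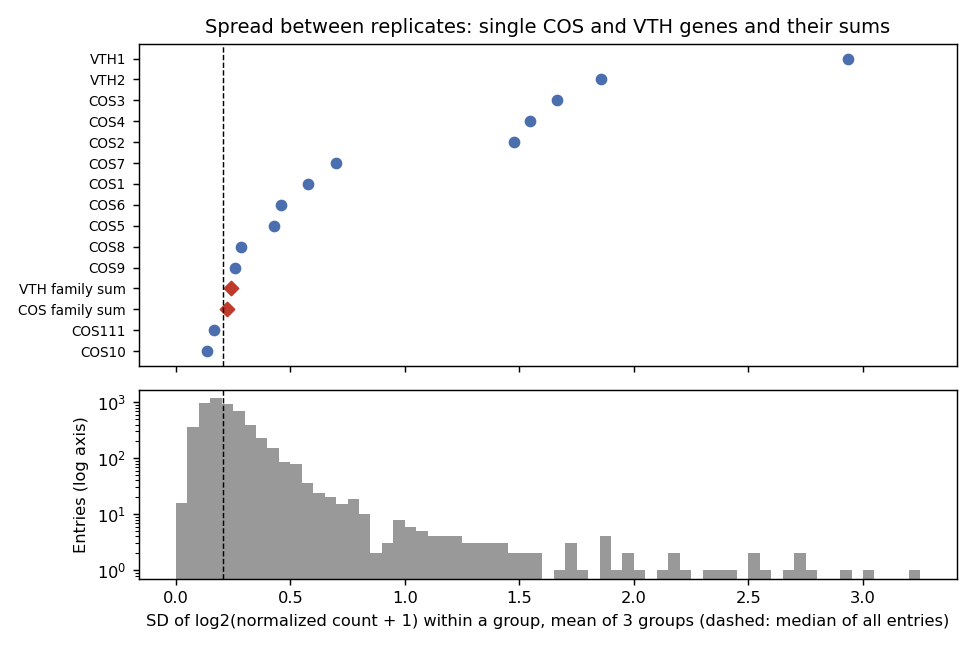
Above, the SD of log2(normalized count + 1) within a group, averaged over the 3 groups. Circles are COS and VTH genes and COS111, which is not of the COS family, and diamonds are the 2 family sums. Below, the same measure for all entries averaging at least 10 normalized counts, counted on a log axis. VTH1, VTH2, COS2, COS3 and COS4 lie far to the right, and the sums lie beside the dashed line at the median of 0.21.

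COS111 (YBR203W, chromosome II, 629168 to 631942) stood apart from the COS family by its place and length. It had 104, 161 and 105 normalized counts in pab1Δpbp1Δ libraries, against 68.9, 78.5 and 76.0 in pbp1Δ libraries and 97.2, 92.9 and 91.7 in WT libraries. Its pbp1Δ libraries lay below all others and its pab1Δpbp1Δ libraries above all others. The log2 fold change was 0.72 in pab1Δpbp1Δ against pbp1Δ, -0.34 in pbp1Δ against WT and 0.40 in pab1Δpbp1Δ against WT, with DESeq2 adjusted p of 0.0468, 0.622 and 0.268, so none was called.

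The AAD genes had few footprints. Their summed normalized counts were 12.02, 35.3 and 42.0 in pab1Δpbp1Δ libraries, against 15.7, 12.4 and 4.76 in pbp1Δ libraries and 12.3, 6.35 and 15.1 in WT libraries. The pab1Δpbp1Δ replicate 1 library lay within the range of the other groups, and replicates 2 and 3 lay above it. Log2 fold changes of 1.41 against pbp1Δ (SE 0.67) and 1.39 against WT (SE 0.66) had DESeq2 adjusted p of 0.0973 and 0.0793. AAD6 (YFL056C), the most abundant of the family, had 5.29, 13.8 and 22.7 in pab1Δpbp1Δ libraries, against 8.36, 4.91 and 1.903 in pbp1Δ libraries and 7.74, 1.29 and 7.81 in WT libraries. Its groups overlapped (log2 fold change 1.39, SE 0.88, DESeq2 adjusted p = 0.239 against pbp1Δ). AAD14, on chromosome XIV, was the AAD gene whose pab1Δpbp1Δ libraries (3.71, 6.26 and 4.87) lay above all pbp1Δ libraries (2.31, 0.826 and 0) and all WT libraries (0, 1.07 and 0), at counts close to the limit of 3.

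Few counts were assigned to the PAU genes. All 24 together held 41.94 expected counts over the 9 libraries, and 16 of them were at 0 throughout. The sum was 3, 13.6 and 8.98 expected counts in pab1Δpbp1Δ libraries, against 2.99, 5.01 and 2 in pbp1Δ libraries and 2, 4.39 and 0 in WT libraries. The groups overlapped, and the log2 fold changes of 1.45 against pbp1Δ (SE 1.05) and 1.89 against WT (SE 1.25) had DESeq2 adjusted p of 0.308 and 0.226. The 19 within 25 kb of an end held 7.55 of the counts, with 4 genes above 0 in any library. The 5 farther in held 34.39, with 4 genes above 0. Most of the latter counts lay in PAU17 and PAU5, and PAU7 was at 0. Position and the sharing of reads among near-identical copies were not separated here, and no effect of position was tested. PAU17 (YLL025W, chromosome XII, 94747 to 95121) had 1.85, 4.41 and 0 normalized counts in pab1Δpbp1Δ libraries, against 1.76, 4.14 and 1.903 in pbp1Δ libraries and 1.11, 2.53 and 0 in WT libraries. PAU5, on chromosome VI, had 0.925, 2.94 and 4.85 in pab1Δpbp1Δ libraries, against 0 in each pbp1Δ library and 1.11, 0 and 0 in WT libraries. A limit of 3 counts stood at 2.21 to 4.85 normalized counts per library, and most counts of single PAU genes lay at or under it. No PAU gene was called in any comparison, but few were tested. DESeq2 gave an adjusted p to 1 of the 24 in pab1Δpbp1Δ against pbp1Δ, 1 in pbp1Δ against WT and 2 in pab1Δpbp1Δ against WT. edgeR tested 0 of them.

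The 8 YRF1 genes, annotated at 4149 to 5728 bases, were listed at 0 in all 9 libraries. The table also holds unspliced forms of YRF1-3, YRF1-6 and YRF1-7, whose expected counts were equal to each other in every library and at most 1.55. Of 25 other open reading frames of the Y' element, 19 were at 0 in all libraries and none exceeded 2 expected counts. The limit on how many places a read may match before it is dropped was not given in the sources used here, so a 0 in these near-identical genes, and in the PAU genes, is not a measure of absent footprints. No fold change was computed for YRF1.

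Gene by gene, 1 of the 16 members tested (COS7) was called in pab1Δpbp1Δ against pbp1Δ, or 6.25%, where 21.3% of all 5772 tested entries were called. Between pbp1Δ and WT, DESeq2 called 0 of 15 and edgeR 0 of 12, where DESeq2 called 1.21% of all tested entries. There, 2 members had an unadjusted p under 0.05, COS2 (log2 fold change 1.87) and COS4 (-1.51), which both varied widely within groups. In pab1Δpbp1Δ against WT, 3 of 19 were called (COS6, COS7 and VTH2), or 15.8%, where 30.9% of all entries were called. All called members were higher in pab1Δpbp1Δ. The groups did not overlap for 4 of the 16 tested members against pbp1Δ (25%, where 46.0% of all tested entries did not overlap), for 2 of 15 in pbp1Δ against WT (13.3%, where 23.3% did not) and for 6 of 19 in pab1Δpbp1Δ against WT (31.6%, where 55.1% did not). Both comparisons of pab1Δpbp1Δ share its libraries. The share of members called lay below that of all entries in both pab1Δpbp1Δ comparisons, with no test of the difference. In pbp1Δ against WT, 15 members are too few to tell 0 calls from a share of 1.21%. The tested members included single COS and VTH copies of wide replicate spread, and AAD and PAU genes of few counts. Whether these lowered the share called was not tested.

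Other genes within 25 kb of a chromosome end were counted in the same way. Of the 184 tested in pab1Δpbp1Δ against pbp1Δ, 37 were called higher and 14 lower (27.7%, beside 21.3% of all tested entries). The median log2 fold change of the 184 was 0.50, beside 0.025 for all tested entries. Similar copies were not summed in this count. ERR1 and ERR2, with equal values (log2 fold change 4.84, SE 0.64 each), entered it as separate calls. Between pbp1Δ and WT, 1 of the 169 tested genes was called higher and 1 lower (1.18%, beside 1.21% of all tested entries). In pab1Δpbp1Δ against WT, 47 of 196 were called higher and 21 lower (34.7%, beside 30.9%). THI5, a thiamine synthesis gene whose family also has similar copies near chromosome ends, had 90.6, 102 and 117 normalized counts in pab1Δpbp1Δ libraries, against 4.37, 0 and 0 in pbp1Δ libraries. These copies were not summed, so the values of THI5 alone are uncertain, as for single COS and VTH copies. THI5 had the highest log2 fold change of the called genes, 6.12 (SE 0.75, DESeq2 adjusted p = 2.43e-14). The lowest was SRO77, an exocytosis gene, with 6.96, 9.84 and 9.90 in pab1Δpbp1Δ libraries, against 72.9, 128 and 115 in pbp1Δ libraries (log2 fold change -3.59, SE 0.45, DESeq2 adjusted p = 1.27e-13). Called genes near chromosome ends thus lay on both sides of the range of the COS, AAD and VTH genes.

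**Figure D5:**
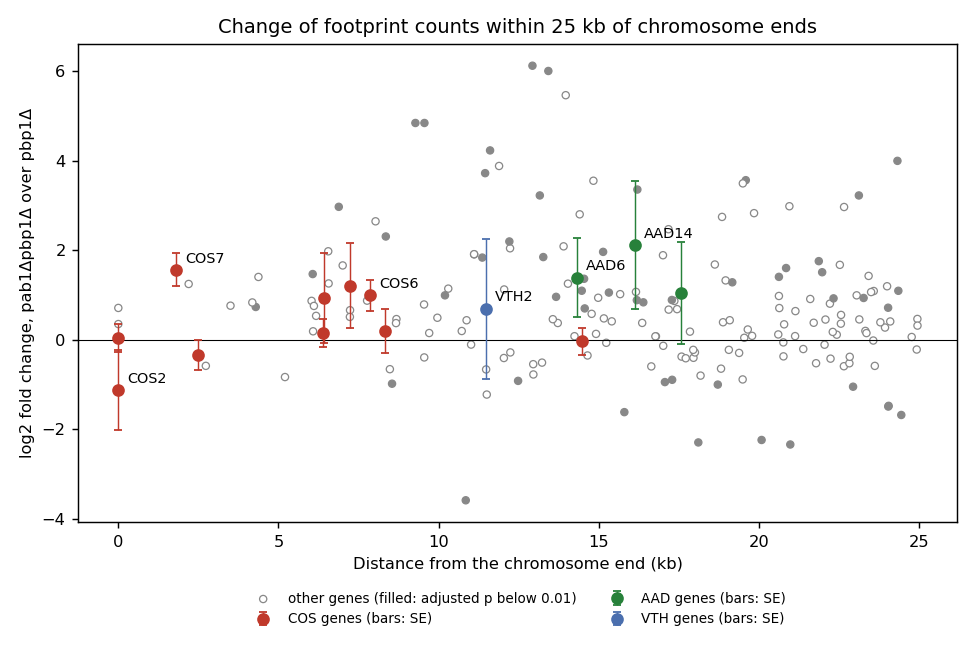
Log2 fold change of pab1Δpbp1Δ over pbp1Δ against the distance from the chromosome end in kb, for tested genes within 25 kb. Grey circles are other genes, filled where the DESeq2 adjusted p was below 0.01, and coloured points are COS, AAD and VTH genes with bars of 1 SE. The family members lie between -1.12 (COS2) and 2.12 (AAD14, of few counts), and the far more numerous other genes extend from -3.59 to 6.12.

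Genes of related function were counted as lists, whose calls against pbp1Δ are to be read beside the 21.3% of all tested entries. The share called was 37.5% for low-oxygen genes, 10% for DUP240, 11.1% for the Vps10 list, 83.3% for reductases outside AAD, 41.7% for Yap1 genes and 17.4% for silencing factors, and no list was tested as a whole. The mannoprotein genes of the DAN and TIR type, relatives of PAU, had 0 of 6 called against pbp1Δ with DESeq2 and 0 of 3 with edgeR, and 1 had an unadjusted p under 0.05. Of 16 genes that control or join the low-oxygen response, 3 were called higher and 3 lower. CYC7, an isoform of cytochrome c, rose most, with 60.0, 57.3 and 58.2 normalized counts in pab1Δpbp1Δ libraries, against 16.5, 9.91 and 18.1 in pbp1Δ libraries (log2 fold change 1.97, SE 0.43, DESeq2 adjusted p = 4.86e-05). OLE1, the fatty acid desaturase, fell most, to a mean of 3607 ± 342 in pab1Δpbp1Δ, against 10799 ± 1158 in pbp1Δ (SD, n = 3 each, log2 fold change -1.60, DESeq2 adjusted p = 1.92e-23). Members of this list thus moved in both directions.

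For the COS genes, the related DUP240 membrane protein genes had 1 of 10 called, PRM9, which was higher (82.1, 54.8 and 101 in pab1Δpbp1Δ libraries, against 28.9, 35.3 and 32.3 in pbp1Δ libraries, log2 fold change 1.27, SE 0.37, DESeq2 adjusted p = 0.00367). The ESCRT genes, whose products sort ubiquitinated membrane proteins at endosomes where COS proteins act, had 0 of 16 called against pbp1Δ with DESeq2 or edgeR, and 0 had an unadjusted p under 0.05. Against WT, where DESeq2 called 30.9% of all tested entries, DESeq2 called 0 and edgeR 1 of the 16, and 4 had an unadjusted p under 0.05. Of 9 genes of the Vps10 receptor, the retromer that recycles it and its vacuolar cargo, 1 was called, PRC1, the carboxypeptidase Y gene, with 4497 ± 166 in pab1Δpbp1Δ and 3078 ± 250.1 in pbp1Δ (SD, n = 3 each, log2 fold change 0.53, DESeq2 adjusted p = 0.000606). edgeR called 0 of these 9.

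Aldo-keto reductase genes outside the AAD family had 5 of 6 called, all higher against pbp1Δ. GCY1, a glycerol dehydrogenase gene, had 103, 182 and 223 normalized counts in pab1Δpbp1Δ libraries, against 17.4, 18.3 and 15.2 in pbp1Δ libraries (log2 fold change 3.30, SE 0.39, DESeq2 adjusted p = 1.36e-15). GRE3, an aldose reductase gene, had the lowest log2 fold change of the 5, 1.15 (SE 0.15, DESeq2 adjusted p = 6.14e-13). Of 12 oxidative stress genes tied to the factor Yap1, 2 were called higher and 3 lower, from AHP1, a peroxiredoxin gene, at 0.87 to ATR1, a drug exporter gene, at -1.34 (DESeq2 adjusted p = 9.92e-06 and 0.00275). The median log2 fold change was 1.39 over the 6 reductase genes. No AAD gene was called, and the 3 tested had SE of 0.88 (AAD6), 1.14 (AAD4) and 1.44 (AAD14). AAD14 averaged 4.95 normalized counts in pab1Δpbp1Δ and 1.05 in pbp1Δ. It thus passed the filtering mainly through the group where it was high, and no AAD median is set beside that of the reductases.

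Of 23 silencing and telomere chromatin factors, 1 was called higher and 3 lower against pbp1Δ. ESC1, which tethers silent chromatin to the nuclear rim, had a log2 fold change of 1.13 (DESeq2 adjusted p = 4.07e-06). HST1, a histone deacetylase gene, had the lowest of the called, -1.24 (DESeq2 adjusted p = 0.00111). The other 2 that fell, named after their values were seen, were SIR2, the silencing deacetylase gene, at -1.07, and SUM1, a repressor that acts with Hst1, at -0.62 (DESeq2 adjusted p = 6.3e-06 and 0.00434). Of 10 telomerase and telomere maintenance genes, DESeq2 called 0 and edgeR 0 of 9, and 2 had an unadjusted p under 0.05. In pbp1Δ against WT, none of the lists of related function had a call with DESeq2 or edgeR, and unadjusted p under 0.05 was reached by 0 to 5 genes per list. DESeq2 called 1.21% of all tested entries there, and lists of this size are too small to tell 0 calls from that share.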

How the data were processed

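The libraries were footprints of pab1Δpbp1Δ, pbp1Δ and WT yeast. Per the labels and the study's methods, the authors trimmed reads with cutadapt 1.9, collapsed duplicates with UMI-tools, removed non-coding RNA, and aligned to a yeast transcriptome of spliced and unspliced forms with Bowtie 1.0.0 inside RSEM 1.3.0. The submitters' processing notes name the build R64. The authors deposited expected counts (estimated counts, not whole) per isoform and per gene, and FPKM values, which they scaled by length and depth.

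The members and lists were chosen with earlier results of these data known. Members were found by symbol through RefSeq locus tags (6259 isoform entries matched). Expected counts were rounded and tested with DESeq2 1.42.0 (R 4.3.3) on the 6 libraries of each pair without covariate, with independent filtering at 0.01, and Benjamini-Hochberg adjustment over all entries. For family tests, members were replaced by the sum of their rounded counts, COS111 apart. Levels use size factors over all 9 libraries. Replicate pairs differed by a chi-square of 6.09 to 45.1 per degree of freedom, so none was a duplicate. The scripts were tested on simulated data.

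Alternatives were edgeR 4.0.16 (quasi-likelihood, TMM), TMM factors, scaling by total counts, a mean count of at least 10, no independent filtering, the gene table, all 9 libraries, a replicate block, limma 3.58.1 on log2(FPKM + 1) and log2(FPKM + 0.1), other thresholds, each library left out, COS111 added to COS, and, chosen after seeing the data, summing before rounding. Named were the family sums, called members, the highest gene by FPKM in each family, the highest and lowest log2 fold change of pab1Δpbp1Δ against pbp1Δ in each family (averaging at least 10 normalized counts), COS111, and the highest and lowest called gene of each list. Other members named with values (COS3, COS4, COS5, COS10, AAD14 and PAU5) were chosen after their values were seen. The gene FPKM table was not used. Limits of 3 counts cover counting error alone. No sequences are shown, as none were used here.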

Additional observations from a re-analysis of the deposited data

How the results depend on the processing

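Family sums kept their direction in both pab1Δpbp1Δ comparisons under all alternatives run. The COS sum against pbp1Δ passed with scaling by total counts (log2 fold change 0.70), with all 9 libraries in the fit (0.60) and with COS111 added (0.60), and ranged from 0.44 to 0.76 without single libraries. The VTH sum against pbp1Δ passed with scaling by total counts (0.75), all 9 libraries (0.65) and the replicate block (0.63), and ranged from 0.49 to 0.78 without single libraries. Scaling by total counts shifted the median of all entries by 0.12 against pbp1Δ and by 0.11 against WT. Against WT, the COS sum ranged from 0.57 to 0.80 without single libraries. The VTH sum ranged from 0.53 to 0.80, and lost its call with the replicate block (0.67) and with limma on log2(FPKM + 1) (0.74) and log2(FPKM + 0.1) (0.78). In pbp1Δ against WT no sum was called under any alternative run. The PAU and AAD sums received no adjusted p there in several fits, the main fit of PAU among them, so those fits could not give a call. Without single libraries, the log2 fold changes of the sums crossed 0, from -0.17 to 1.38 for PAU, -0.048 to 0.24 for COS, -0.38 to 0.32 for AAD and -0.12 to 0.12 for VTH. The causes of these changes were not tested.

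In pab1Δpbp1Δ against pbp1Δ, members called numbered 2 with scaling by total counts, 2 when entries averaged at least 10 counts, 2 with all 9 libraries, 3 at an adjusted p below 0.05, 0 with limma at either pseudocount, and 0 to 2 without single libraries. In pbp1Δ against WT they numbered 0 to 1 without single libraries, the 1 being VTH1 without pbp1Δ replicate 3. In pab1Δpbp1Δ against WT they numbered 1 with edgeR, 1 with limma at either pseudocount, and 1 to 3 without single libraries, with 1 left without pab1Δpbp1Δ replicate 2 or 3 or WT replicate 1 or 2.

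Directions turned for several members. In pab1Δpbp1Δ against pbp1Δ, the log2 fold change of PAU17 ranged from -1.34 to 0.27 over the alternatives, with 0.27 without pab1Δpbp1Δ replicate 3 and 0.26 without pbp1Δ replicate 2, and that of VTH1 was -0.11 without pbp1Δ replicate 1, -0.12 without replicate 2 and 7.39 without replicate 3. In pbp1Δ against WT, COS7 was at 0.26 without WT replicate 3 and -0.56 without WT replicate 1. AAD6 was at 0.062 with the replicate block, and at -0.66 without pbp1Δ replicate 1, 0.32 without pbp1Δ replicate 3, 0.28 without WT replicate 1 and 0.23 without WT replicate 3. VTH1 was at 0.089 without pbp1Δ replicate 1, 0.085 without replicate 2 and -7.42 without replicate 3. VTH2 was at -0.43 with the replicate block, -0.40 and -1.31 with limma on log2(FPKM + 1) and log2(FPKM + 0.1), and -0.30 without pbp1Δ replicate 2, against 0.94 without replicate 3. In pab1Δpbp1Δ against WT, COS2 was at -0.46 without pab1Δpbp1Δ replicate 1 and 1.33 without replicate 2, and PAU17 at -0.14 without pab1Δpbp1Δ replicate 2 and 1.96 without WT replicate 2. VTH1 there was at 0.068 with edgeR, 0.090 with scaling by total counts, 0.57 without pab1Δpbp1Δ replicate 3 and 0.14 without WT replicate 1.

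Whether libraries of the same number pair across groups was not settled. Correlations of their deviations from the group means ran from -0.12 to 0.23 in pab1Δpbp1Δ against pbp1Δ. They ran from 0.065 to 0.30 in pbp1Δ against WT and from 0.019 to 0.25 in pab1Δpbp1Δ against WT. Of the 3 libraries of the first-named group, 1, 2 and 1 correlated best with their own number, in the same order of comparisons. With the number as a block, 1, 0 and 3 members were called in these comparisons, the same counts as without it. In pbp1Δ against WT, however, COS2, COS6, COS7, COS111, AAD6, PAU17, VTH1 and VTH2 received no adjusted p with the block. A call was therefore not possible for them, and the 0 there does not bear on the pairing. The YRF1 genes summed with the other Y' open reading frames averaged 0.819 to 0.962 normalized counts in the fits and received no adjusted p. Counts of the PAU and most AAD genes were low, and whether depth or reads that match many places set this was not tested. Values of single COS and VTH copies are uncertain.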
